A study of Mus musculus with 14 samples.

Results

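The 10 genes described here encode Hsp90 and Hsp70 chaperones with their partners, the chaperonin Hsp60 and a heat shock regulator. These are Hsp90aa1, Hsp90ab1, Hspa8, Hspa1b, Hsph1, Dnaja1, Dnajb1, Hspa5, Hspd1 (Hsp60) and Hsf1 (the regulator). They were taken by gene symbol from a table of 14449 genes in 14 libraries. All 10 were found and all 10 passed a filter on low values, which 12329 genes passed. The members were chosen by their level differences between Il1rn-/- and wild-type libraries of this table, so the difference between genotypes is given for these genes as a description, without a test.

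The libraries were made from CD4+Foxp3eGFP+ cells, which are regulatory T cells marked by a green fluorescent reporter of Foxp3, from the lymph nodes of BALB/c mice at day 35 after birth. Of these, 7 libraries are wild type and 7 are Il1rn-/-, a genotype without the IL-1 receptor antagonist, and both genotypes carry the reporter. Each library was prepared by Smart-Seq2, a method for little input, from 50000 sorted cells. The title letters form a set a of 3 wild-type and 3 Il1rn-/- libraries and a set b of 4 and 4. The labels do not say what the letters mean, which sex the mice were, or that each library came from its own animal, so p-values here measure the spread between libraries only. The study's title places these cells in arthritis driven by IL-1β. The genotype labels could not be checked on Il1rn, which the table does not list and which was not analysed here.

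Hsp90 and Hsp70 proteins bind unfolded or unstable client proteins and release them in cycles driven by ATP. J-domain proteins deliver clients to Hsp70 and start its ATP hydrolysis, and nucleotide exchange factors such as Hsph1 reset it. Under stress, unfolded proteins draw chaperones away from the transcription factor Hsf1, which then binds heat shock elements, runs of the unit GAA in alternating directions, in the promoters of chaperone genes. In the endoplasmic reticulum a separate unfolded protein response acts on Hspa5 through the ER stress element. In T cells, Hsp90 clients include the Src-family kinase Lck.

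The promoter letters that these 2 systems read are shown for the genes in which a match was found. RefSeq promoter windows of build GRCm38.p6, from 250 bases before to 50 bases after a gene start, were at hand for 6 of the 10 genes. The first pair below gives the 250 bases before the start, at chr2:34771840-34772089 on the plus strand for Hspa5 and chr17:34959239-34959488 on the minus strand for Hspa1b. Capitals mark an ER stress element (CCAAT and CCACG with NNNNNNNNN between them, searched on either strand) in Hspa5 and a heat shock element of 2 units (GAANNTTC or TTCNNGAA) in Hspa1b.
Hspa5: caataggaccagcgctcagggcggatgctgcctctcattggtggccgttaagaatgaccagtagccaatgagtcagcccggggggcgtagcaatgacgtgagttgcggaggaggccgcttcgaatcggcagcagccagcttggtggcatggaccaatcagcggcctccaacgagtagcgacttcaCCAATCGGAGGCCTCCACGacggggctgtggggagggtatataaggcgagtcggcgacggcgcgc
Hspa1b: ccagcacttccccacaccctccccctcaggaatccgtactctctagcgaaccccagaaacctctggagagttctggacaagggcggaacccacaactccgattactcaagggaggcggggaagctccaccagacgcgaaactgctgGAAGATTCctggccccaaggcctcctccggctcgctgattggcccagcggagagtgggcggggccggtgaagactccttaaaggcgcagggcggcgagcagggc

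The ER stress element of Hspa5 lay at positions -65 to -47 from the gene start, and its CCAAT box is the first part of the same letters. This motif was found in 0.119% of 32851 RefSeq promoter windows. The match in Hspa1b lay at -104 to -97. A 2-unit heat shock element is a common string, found in 15.1% of windows, whereas 3 units in a row (GAANNTTC followed by NNGAA, or TTCNNGAA followed by NNTTC, both of which contain the shorter form) were found in 0.603%.

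Heat shock elements of the other genes are given as 30 bases that hold a match, with the match in capitals. Hsph1 is shown at chr5:149636351-149636380 (upstream) and chr5:149636287-149636316 (downstream) on the minus strand, Hspd1 at chr1:55088053-55088082 on the minus strand and Dnaja1 at chr4:40722333-40722362 on the plus strand.
Hsph1 upstream: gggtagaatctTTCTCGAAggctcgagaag
Hsph1 downstream: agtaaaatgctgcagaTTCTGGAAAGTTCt
Hspd1: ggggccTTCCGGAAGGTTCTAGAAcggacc
Dnaja1: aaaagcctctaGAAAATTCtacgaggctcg

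The upstream match of Hsph1 has 2 units at positions -33 to -26 from the first of its listed starts, and the downstream match has 3 units at positions 36 to 48 after it. In Hspd1 a pair of 3-unit matches overlap at -144 to -127 of the second listed start, close to the start of its head-to-head neighbour Hspe1. Dnaja1 has 2 units at -124 to -117. Dnajb1 held neither a heat shock element nor an ER stress element in its windows. These matches describe letters only, and say nothing of whether a factor was bound.

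The libraries were of different kinds, and these kinds did not follow the letters or the genotypes. Rn45s, the ribosomal RNA precursor, took 59.6% to 65.8% of the reads in 6 libraries (all 4 wild-type libraries of set b, with Il1rn-/- 1-b and 2-b) and 20.3% to 39.95% in the other 8, and the groups are called high-Rn45s and low-Rn45s here. Total reads ranged from 952021 to 3756559. Reads of the Y-linked genes Ddx3y, Uty, Kdm5d and Eif2s3y summed to 374 to 808 in 4 low-Rn45s libraries (wild-type 1-a and 2-a, Il1rn-/- 3-b and 4-b) and to 0 to 2 in the remaining 10. Within each set those reads were therefore in 1 genotype only. All 9 markers of regulatory T cells and of T cells in general, Foxp3, Cd4 and Cd3e among them, had reads in all 14 libraries and summed to 2359 to 3907 CPM, against 2.36 to 25.1 CPM for the 5 myeloid markers and 14.5 to 52.2 CPM for 5 B cell markers in the table.

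Levels are deposited log2 CPM, read counts scaled by an effective library size that differs from the total reads. This size was below the total in all high-Rn45s libraries, and above it in all low-Rn45s ones except Il1rn-/- 3-b. Levels are compared between libraries and not between genes because they are not per transcript length. Since these are bulk libraries, fewer cells with a transcript and less of it per cell cannot be told apart.

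**Figure D1:**
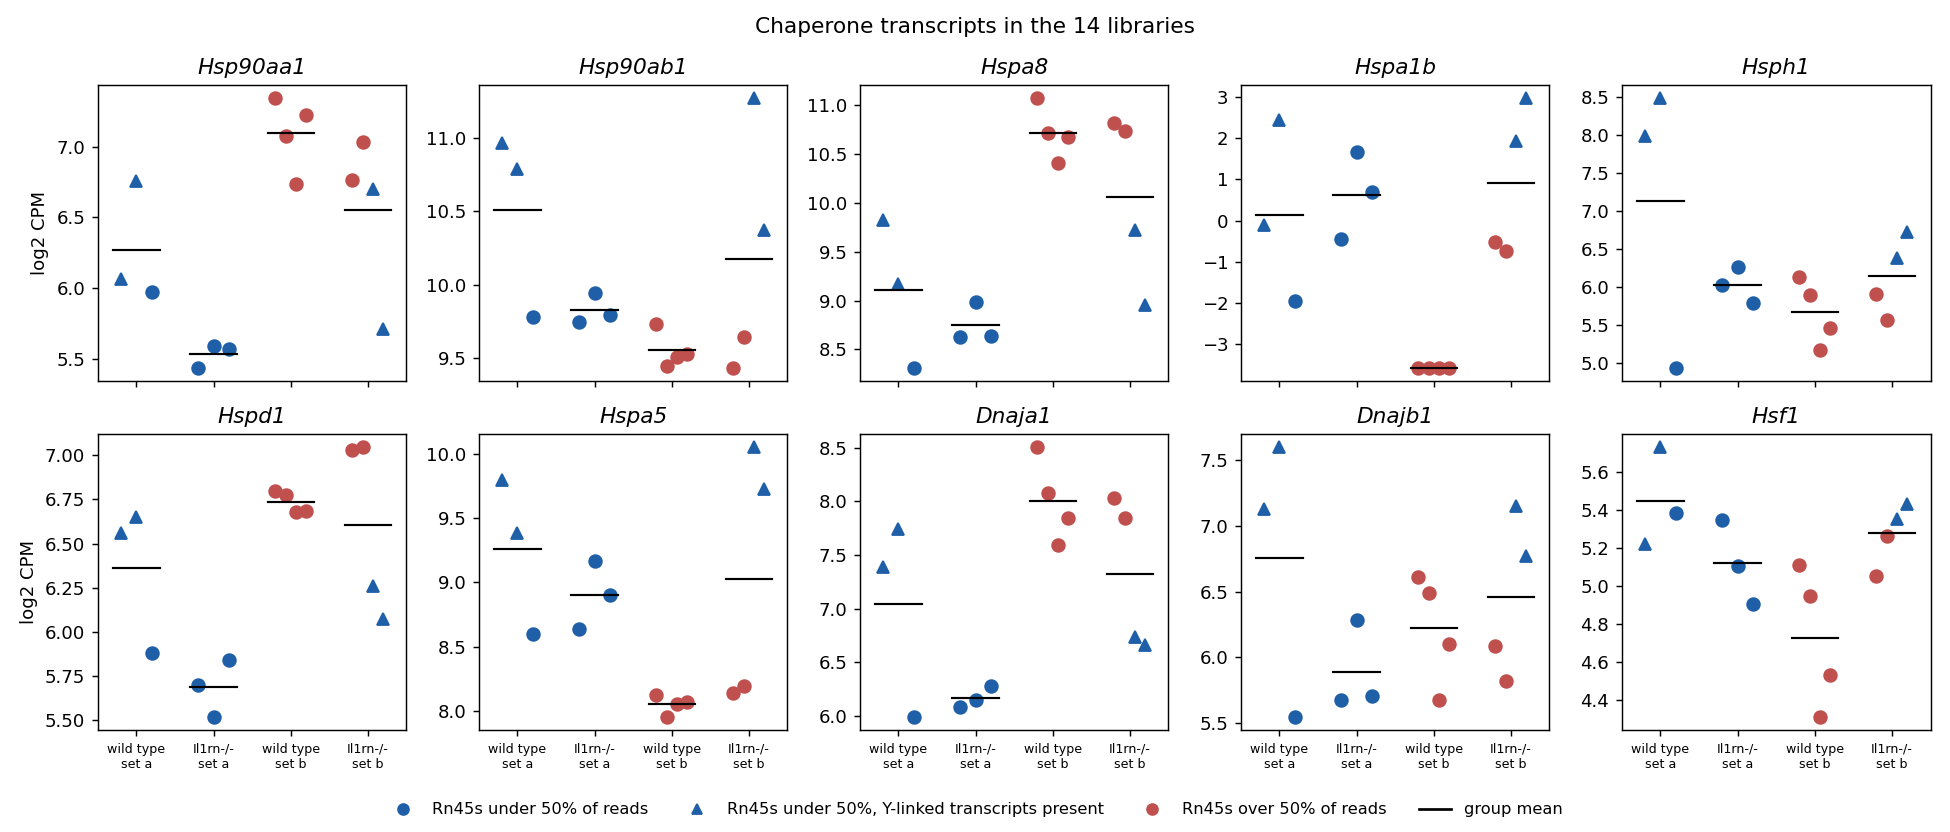
Levels of the 10 chaperone genes in log2 CPM (vertical axis) in every library, by genotype and set, with library kind shown by the markers. Hspa8 sits at 10.40 or above in all 6 high-Rn45s libraries and at 9.83 or below in the others, while Hspa5 sits at 8.20 or below and 8.60 or above.

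The 2 cytosolic Hsp90 genes had different patterns across these libraries. Hsp90aa1, the stress-inducible form, was at 6.07, 6.76 and 5.97 in the wild-type and at 5.43, 5.59 and 5.57 in the Il1rn-/- libraries of set a, in the order of their numbers here and for the genes that follow. In set b it was at 7.34, 7.08, 6.74 and 7.23 in wild type and at 6.76, 7.03, 6.70 and 5.71 in Il1rn-/-. The genotypes did not overlap in set a, and in set b Il1rn-/- 4-b stood about 1 log2 unit under the rest. Over both sets the Il1rn-/- mean was 6.11 ± 0.68 (SD, n = 7) and the wild-type mean 6.74 ± 0.54 (SD, n = 7), with ranges that overlapped.

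Hsp90ab1 is the constitutive form. It was at 10.96, 10.79 and 9.78 in wild type and 9.75, 9.95 and 9.79 in Il1rn-/- of set a. In set b it was at 9.73, 9.45, 9.51 and 9.53 in wild type and at 9.43, 9.64, 11.27 and 10.37 in Il1rn-/-. The 4 libraries above 10 are the 4 with Y-linked transcripts, from both genotypes, and the other 10 lay between 9.43 and 9.95.

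Hspa8, the constitutive Hsp70 also called Hsc70, separated the library kinds. It was at 9.83, 9.17 and 8.31 in wild type and 8.63, 8.98 and 8.64 in Il1rn-/- of set a. In set b it was at 11.07, 10.72, 10.40 and 10.68 in wild type, and at 10.81, 10.73, 9.72 and 8.96 in Il1rn-/-. Il1rn-/- 3-b and 4-b, the 2 low-Rn45s libraries of set b, were within the range of set a.

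Hspa1b encodes the stress-inducible Hsp70 and was close to absent in these sorted cells. It had 3, 23 and 1 reads in wild type and 3, 12 and 7 in Il1rn-/- of set a. In set b it had 0 reads in all 4 wild-type libraries and 1, 1, 12 and 23 in Il1rn-/-. Its reads cannot be told from those of its neighbour Hspa1a with certainty, since 67.3% of its 32-base stretches occur in Hspa1a too. The 2 genes together had 3 reads over the 6 high-Rn45s libraries, 53 reads over the 4 low-Rn45s libraries without Y-linked transcripts and 156 over the 4 with them. As CPM, their sum was 0 to 0.674 in the first group, 0.527 to 6.14 in the second and 1.97 to 16.8 in the third. A log2 difference for a gene at 0 in 4 libraries depends on the small count added before the logarithm, so the reads are the better guide for Hspa1b.

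Hsph1, the Hsp110 that acts as exchange factor for Hsp70, had the widest range after Hspa1b. It was at 7.99, 8.48 and 4.93 in wild type and 6.02, 6.26 and 5.79 in Il1rn-/- of set a. In set b it was at 6.13, 5.89, 5.17 and 5.46 in wild type and 5.91, 5.56, 6.38 and 6.72 in Il1rn-/-. The 3 wild-type libraries of set a held its highest, second highest and lowest values of all 14, so the wild-type mean there, 7.13 ± 1.92 (SD, n = 3), has a wide error.

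The J-domain proteins Dnaja1 and Dnajb1 both serve cytosolic Hsp70. Dnaja1 was at 7.39, 7.74 and 5.99 in wild type and 6.08, 6.15 and 6.28 in Il1rn-/- of set a, and at 8.51, 8.08, 7.59 and 7.84 and then 8.04, 7.84, 6.73 and 6.66 in set b. Dnajb1, the Hsp40 that is itself a heat shock gene, was at 7.13, 7.60 and 5.55 and then 5.68, 6.29 and 5.70 in set a, and at 6.61, 6.49, 5.68 and 6.10 and then 6.09, 5.82, 7.15 and 6.77 in set b. For both genes wild-type 3-a lay near the Il1rn-/- libraries of its set, and far from wild-type 1-a and 2-a.

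Outside the cytosol, Hspd1 is the chaperonin Hsp60 of the mitochondrial matrix and Hspa5 is the Hsp70 of the endoplasmic reticulum, also called BiP. Hspd1 was at 6.56, 6.65 and 5.88 and then 5.70, 5.52 and 5.84 in set a, and at 6.80, 6.78, 6.68 and 6.68 and then 7.03, 7.04, 6.26 and 6.07 in set b, wild type first. Hspa5 was at 9.80, 9.39 and 8.60 and then 8.64, 9.17 and 8.90 in set a, and at 8.13, 7.96, 8.06 and 8.07 and then 8.14, 8.20, 10.05 and 9.73 in set b. Every wild-type library of set b was below every Il1rn-/- library of set b for Hspa5, with the closest values at 8.13 and 8.14.

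Hsf1 varied least. It was at 5.22, 5.73 and 5.38 in wild type and 5.34, 5.10 and 4.90 in Il1rn-/- of set a, and at 5.11, 4.94, 4.31 and 4.53 and then 5.05, 5.26, 5.35 and 5.43 in set b. Wild-type 3-b, the library with the fewest reads, had the lowest value and held 17 reads of the gene.

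In a limma fit with genotype and letter as terms, the estimated Il1rn-/- minus wild-type difference on the log2 scale was -0.77 ± 0.26 (SE) for Dnaja1, -0.63 ± 0.19 for Hsp90aa1, -0.53 ± 0.29 for Hspa8 and -0.36 ± 0.18 for Hspd1. It was -0.24 ± 0.30 for Dnajb1 and -0.20 ± 0.42 for Hsph1. Estimates were positive for Hsp90ab1 at 0.06 ± 0.30, Hsf1 at 0.18 ± 0.19, Hspa5 at 0.40 ± 0.31 and Hspa1b at 2.79 ± 0.90, the last with the limit given above. The median over the 10 genes was -0.22, beside 0.04 over all genes tested, and it was 0.06 without wild-type 2-a. Without that library the estimate was 0.14 for Hsph1 and -0.02 for Dnajb1, and without Il1rn-/- 3-b it was -0.18 for Hsp90ab1. Of all 12329 genes, 0 (0%) had a limma adjusted p under 0.05, with 679 under an unadjusted 0.05 and a lowest adjusted p of 0.787, and nothing is read from these counts about the members. None of the 10 separated the genotypes over all 14 libraries, and 0.0324% of genes did.

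These differences were not the same size, nor for several genes the same sign, in the 2 sets. Within set a 9 of 10 were negative, with a median of -0.68 beside 0.03 over all genes, and only Hspa1b was positive. Within set b 6 of 10 were positive, with a median of 0.36 beside 0.05 over all genes. The set a median ran from -0.90 without wild-type 3-a to -0.44 without wild-type 2-a, and the set b median was 0.13 without Il1rn-/- 3-b. Hsp90aa1 (-0.73 and -0.55), Dnaja1 (-0.87 and -0.69), Hspa8 (-0.35 and -0.66) and Hspd1 (-0.68 and -0.13) were negative in both sets. Hsp90ab1 went from -0.68 to 0.62, Hsph1 from -1.11 to 0.48, Hspa5 from -0.36 to 0.98, Dnajb1 from -0.87 to 0.24 and Hsf1 from -0.33 to 0.55. Single libraries set several of these values. In set a Hsph1 was at -2.21 and Hspa1b at -0.54 without wild-type 3-a, and Hsph1 and Dnajb1 were at -0.44 and -0.45 without wild-type 2-a. Hspa5 in set a was at -0.09 without wild-type 1-a and -0.69 without wild-type 3-a, and Hspa8 was at 0.01 without wild-type 1-a. In set b Dnajb1 was at 0.01 and Hsp90ab1 at 0.26 without Il1rn-/- 3-b, and Hspd1 was at 0.04 without Il1rn-/- 4-b. The difference between the sets was positive for 9 of 10 genes, and 0 of all 12329 genes (0%) had a limma adjusted p under 0.05 for it, with 968 at an unadjusted p under 0.05. In set a Hsp90aa1 and Hspd1 were lower in all Il1rn-/- libraries than in all wild-type ones, as were 3.61% of all genes, and in set b Hspa5 and Hspa1b were higher, as were 2.36%.

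**Figure D2:**
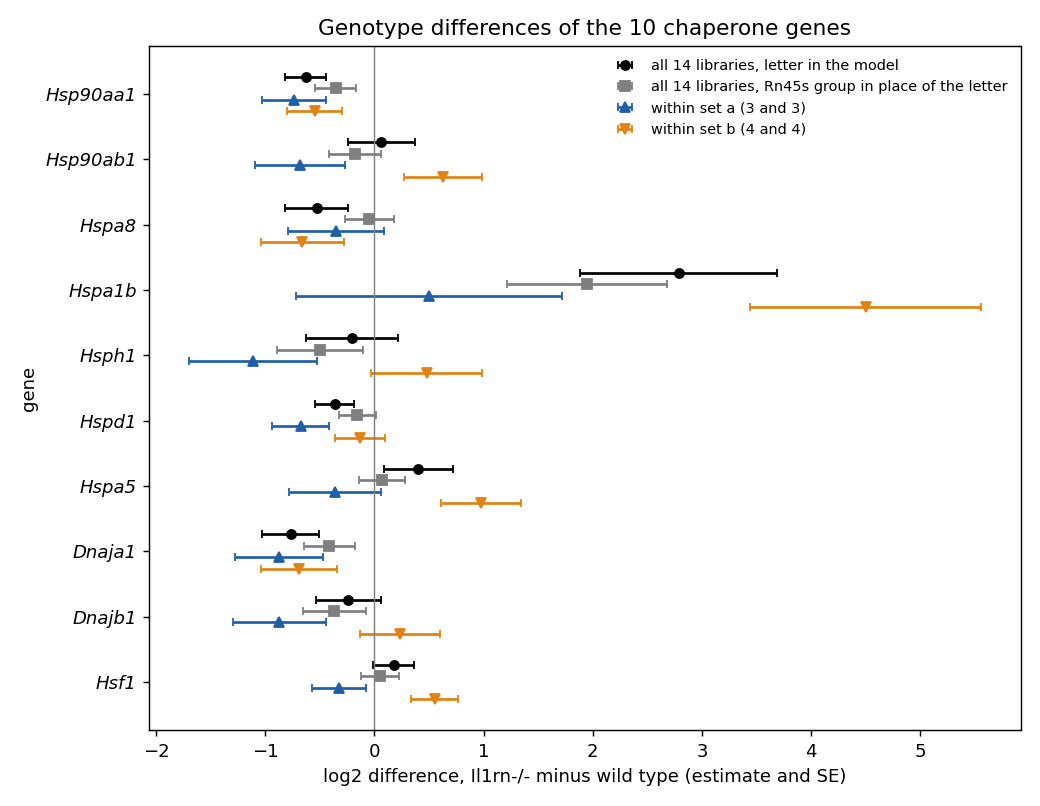
Log2 difference, Il1rn-/- minus wild type (horizontal axis), for the 10 genes with SE bars, in the fit with the letter, with the Rn45s group in its place, and within sets a and b. Set a estimates lie left of 0 for 9 genes, set b estimates right of 0 for 6, and the Rn45s fit brings Hspa8 to -0.05.

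The kinds of library moved with these differences. With the Rn45s group in the model in place of the letter, the genotype estimate was -0.36 for Hsp90aa1, -0.41 for Dnaja1, -0.05 for Hspa8 and -0.16 for Hspd1. In the 6 high-Rn45s libraries alone, none of which held Y-linked transcripts, it was -0.20 for Hsp90aa1, -0.07 for Dnaja1, 0.06 for Hspa8 and 0.30 for Hspd1. In the 8 low-Rn45s libraries alone it was -0.47, -0.66, -0.12 and -0.48 for the same genes. With the 4 Y-positive libraries left out and the Rn45s group in the model, 8 of the 10 estimates were positive, with a median of 0.15. In that last comparison Hsp90aa1 was at -0.29, Dnajb1 at -0.05 and Dnaja1 at 0.02. The only low-Rn45s wild-type library left in it was wild-type 3-a. This library was the lowest of the 8 low-Rn45s libraries for Hspa8, Hspa1b, Hsph1, Hspa5, Dnaja1 and Dnajb1.

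The Rn45s split itself used no chaperone value, and it was tested over all genes. More wild-type than Il1rn-/- libraries were high-Rn45s, and the members were chosen by their genotype differences. Calls of members in this split are therefore not independent of how they were chosen. With genotype as a covariate, 4447 of 12329 genes (36.1%) had a limma adjusted p under 0.05, and so did 7 of the 10 members. Of these 4 were higher and 3 lower in the high-Rn45s libraries, beside 16.1% of all genes higher and 20% lower. The 4 higher genes serve the cytosol and the mitochondria. Hspa8 was 1.69 ± 0.23 (SE) log2 units higher, a 3.23-fold difference (limma adjusted p = 7.8e-06), and Dnaja1 was 1.24 ± 0.23 higher (limma adjusted p = 0.00037). Hsp90aa1 was 0.95 ± 0.19 higher (limma adjusted p = 0.00068) and Hspd1 was 0.73 ± 0.17 higher (limma adjusted p = 0.0023).

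The 3 lower genes include the ER chaperone. Hspa5 was 8.09 ± 0.08 (SD, n = 6) in high-Rn45s and 9.28 ± 0.55 (SD, n = 8) in low-Rn45s libraries, a difference of -1.17 ± 0.21 (SE, limma adjusted p = 0.00024). Hsp90ab1 differed by -0.83 ± 0.24 (limma adjusted p = 0.011), opposite in sign to Hsp90aa1. Hspa1b differed by -2.93 ± 0.74 (limma adjusted p = 0.0042), from 2 reads in the 6 libraries and 84 in the 8. Hsph1 at -1.03 ± 0.40 (limma adjusted p = 0.051), Hsf1 at -0.42 ± 0.17 (limma adjusted p = 0.064) and Dnajb1 at -0.46 ± 0.29 (limma adjusted p = 0.23) did not pass.

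Hspa8 and Hspd1 were higher, and Hsp90ab1 and Hspa5 lower, in all high-Rn45s than in all low-Rn45s libraries, a separation that 14.9% of genes showed in either direction. Without the 4 Y-positive libraries, Hspa8 at 2.18, Dnaja1 at 1.87, Hsp90aa1 at 1.27, Hspd1 at 1.15 and Hspa5 at -0.66 still passed. All high-Rn45s libraries in that fit were of set b and all low-Rn45s ones of set a. Rn45s share and letter cannot be told apart in it. Hsp90ab1 at -0.26 (limma adjusted p = 0.11) and Hspa1b at -1.41 (limma adjusted p = 0.22) no longer did, and Hsph1 and Dnajb1 turned to 0.12 and 0.31. Within set b alone Hspa8, Dnaja1, Hspd1, Hsp90ab1 and Hspa5 passed, while Hsp90aa1 at 0.69 (limma adjusted p = 0.20) and Hspa1b at -3.08 (limma adjusted p = 0.11) did not, and set a holds no high-Rn45s library. The low-Rn45s libraries of set b were Il1rn-/- 3-b and 4-b, both Y-positive. Rn45s share and Y-linked transcripts therefore cannot be told apart within set b. With 1 library left out, Hsph1 passed without wild-type 3-a, Il1rn-/- 3-a or Il1rn-/- 1-b, Hsf1 without Il1rn-/- 3-a or 2-b and Dnajb1 without wild-type 3-a.

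Several measures moved with this split, and their part in it was not tested. The mitochondrial ribosomal RNA mt-Rnr2 took 2.82% to 4.01% of the reads outside Rn45s in the high-Rn45s group and 8.68% to 16.2% in the other. Reads outside Rn45s numbered 384360 to 905988 and 1654868 to 2805693. The 14 immediate early genes, which respond within minutes to activation or handling of cells, summed to 876 to 1504 CPM and 2139 to 9244 CPM, and 8 of 13 tested were lower in the high-Rn45s group, such as Fosb at -3.60 and Jun at -2.77, while 2 were higher. Of 3 CD8 T and NK cell genes tested, 2 were higher, with the 4 in the table summing to 40.7 to 76.1 CPM and 27.1 to 47.3 CPM and the NK gene Klrb1c at 0 in 10 of 14 libraries.

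Some markers of the sorted cells moved with the split as well. The part of these and of B cell markers in the chaperone differences was not tested. Of 9 regulatory T cell and T cell markers, 3 were higher and 2 lower in the high-Rn45s group, where 36.1% of all genes were called. Cd3e, a chain of the T cell receptor complex, was at 9.63 to 10.10 log2 CPM in the high-Rn45s and 6.97 to 8.11 in the low-Rn45s libraries, a difference of 2.46 ± 0.17 (SE, limma adjusted p = 1.6e-09). The others called were Il2ra at 0.76, Cd4 at 0.41, Ctla4 at -1.11 and Ikzf2 at -0.58, while Foxp3 at -0.26 (limma adjusted p = 0.18) did not pass. Of 4 B cell markers tested, 1 was lower (Cd22 at -2.09 ± 0.69, limma adjusted p = 0.023) and none higher. The sums of 5 such markers overlapped, at 16.5 to 49.9 CPM in the high-Rn45s and 14.5 to 52.2 CPM in the low-Rn45s group. Between set b and set a, Cd22 and Ms4a1 were lower and none of these 4 higher.

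**Figure D3:**
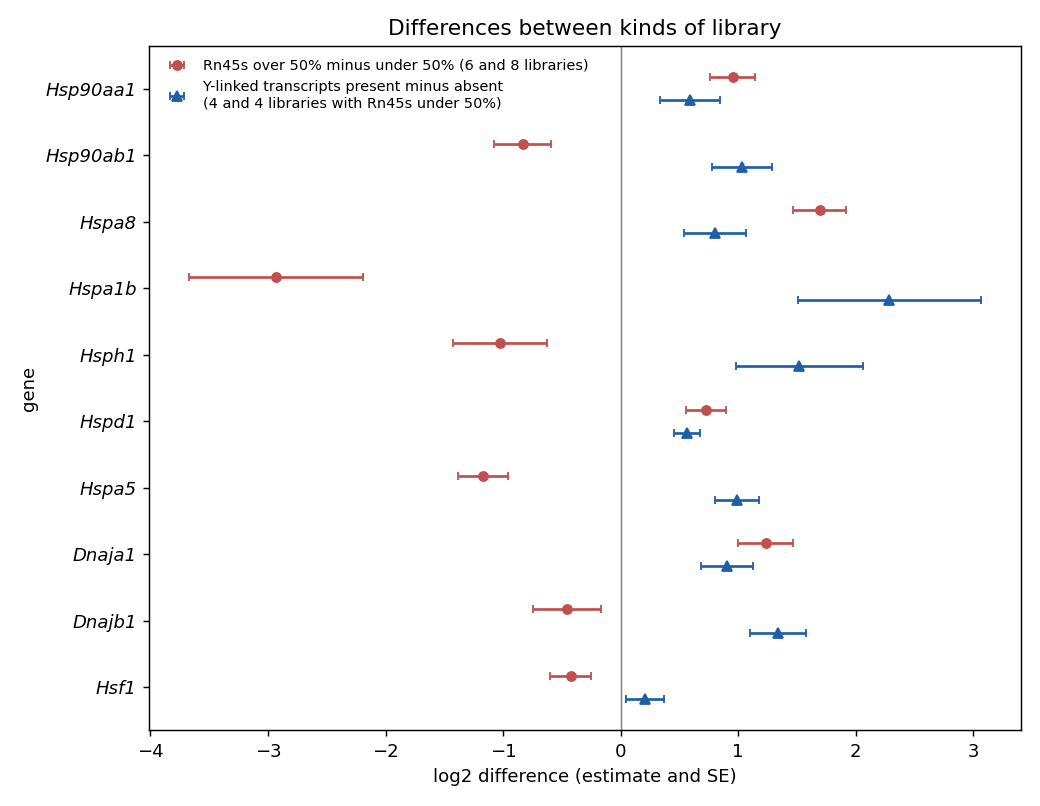
Log2 differences with SE bars (horizontal axis) for the 10 genes between high-Rn45s and low-Rn45s libraries (6 and 8) and between low-Rn45s libraries with and without Y-linked transcripts (4 and 4). The first contrast puts 4 genes right of 0 and 6 left of it, and the second puts all 10 right of 0.

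The letters gave a weaker split of the same kind. With genotype in the model, 2408 genes (19.5%) had a limma adjusted p under 0.05 between set b and set a, and 4 members did, all higher in set b, as were 8.48% of all genes. These were Hspa8 at 1.46 ± 0.29 (SE, limma adjusted p = 0.0030), Dnaja1 at 1.06 ± 0.26 (limma adjusted p = 0.011), Hsp90aa1 at 0.93 ± 0.19 (limma adjusted p = 0.0036) and Hspd1 at 0.64 ± 0.18 (limma adjusted p = 0.020). With the Rn45s group as a further covariate 12 genes were left in all and none of these 4 passed, with limma adjusted p of 0.63 to 0.89 and estimates of 0.49, 0.34, 0.55 and 0.25. That fit rests on Il1rn-/- 3-b and 4-b, the only low-Rn45s libraries of set b, which are Y-positive. Letter and Y-linked transcripts cannot be told apart in it. Hspd1 also missed the threshold when wild-type 3-a or Il1rn-/- 2-a was left out (limma adjusted p up to 0.051), and Hspa5 reached it at -0.74 without Il1rn-/- 3-b (limma adjusted p = 0.047).

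Within the low-Rn45s libraries the estimates of all 10 genes had the same sign, and none passed in the main fit. The 4 libraries with Y-linked transcripts, which come from 2 genotypes and 2 sets, were compared with the 4 without, with genotype as a covariate. The 4 without were all of set a, and wild-type 3-a was the only wild-type library among them. Among the Il1rn-/- libraries compared, the Y-positive ones were those of set b, so letter and Y-linked transcripts cannot be told apart there. The comparison by Y-linked transcripts was chosen after the data were seen. The estimates were positive, meaning higher where Y-linked transcripts were present, with a median difference of 0.95 beside -0.02 over all genes tested, but 0 of 10 passed, as against 18 of all genes (0.146%). Dnajb1, at 7.16 ± 0.34 (SD, n = 4) and 5.80 ± 0.33 (SD, n = 4), differed by 1.34 ± 0.24 (SE, limma adjusted p = 0.24), and this p was 0.0052 to 0.24 over the alternatives on the same 8 libraries, of which log2(CPM + 1), limma voom and the fit without a genotype term passed. It also passed with wild-type 1-a, wild-type 2-a, Il1rn-/- 2-a, Il1rn-/- 3-b or Il1rn-/- 4-b left out, with a lowest limma adjusted p of 0.0080. The main fit kept all 12329 genes. The alternatives that passed kept the 12165 that varied over the 8 libraries, and fits with a library left out also dropped genes without variation. The part of this in the change of p was not tested.

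Of the other cytosolic genes in that comparison, Hsph1 differed by 1.52 ± 0.54 (SE), Hsp90ab1 by 1.03 ± 0.25, Dnaja1 by 0.90 ± 0.22, Hspa8 by 0.80 ± 0.26 and Hsp90aa1 by 0.59 ± 0.26. Hspa5 differed by 0.99 ± 0.18, Hspd1 by 0.57 ± 0.11 and Hsf1, the regulator, by 0.21 ± 0.16. The limma adjusted p ranged from 0.25 to 0.83 for these 8 genes. Dnajb1, Hsph1, Hsp90ab1, Hspa5, Dnaja1 and Hspd1 were higher in all 4 libraries than in all 4 others, as were 2.34% of genes. The Hsph1 difference rests in large part on wild-type 3-a, and was 0.53 without it, while without Il1rn-/- 3-b it was 1.92 and passed (limma adjusted p = 0.047).

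**Figure D4:**
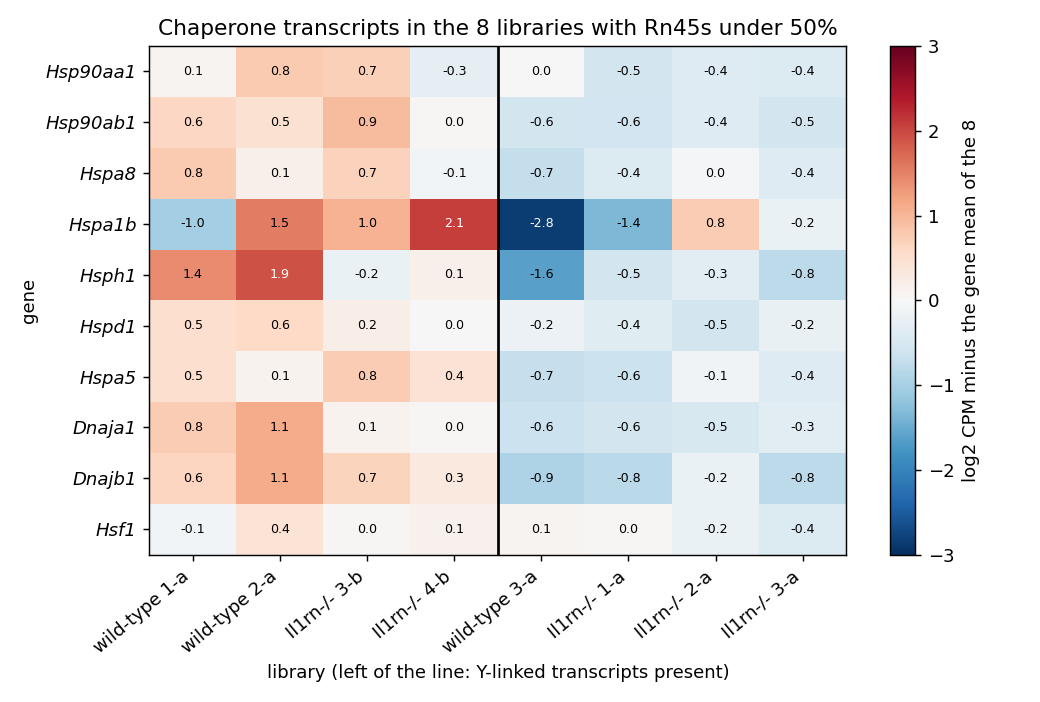
Level of each gene in the 8 low-Rn45s libraries as log2 CPM minus the mean of that gene over the 8 (colour and printed value), Y-positive libraries first. Wild-type 2-a and Il1rn-/- 3-b are among the highest 4 libraries for 10 of 10 genes, and Il1rn-/- 1-a and 3-a for 0 of 10.

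Ranked over these 8 libraries, wild-type 2-a and Il1rn-/- 3-b were among the highest 4 for all 10 genes, and wild-type 1-a and Il1rn-/- 4-b for 8. Il1rn-/- 2-a and wild-type 3-a reached the highest 4 for 2 genes, and Il1rn-/- 1-a and 3-a for 0. Over all 12329 genes each of the 8 libraries was among the highest 4 for 47.8% to 51.9%, and wild-type 2-a and Il1rn-/- 3-b were both so for 16.3%. Pearson's r between members over these 8 libraries was positive for 45 of 45 pairs, with a median of 0.67 and a highest value of 0.95 for Hsph1 with Dnaja1. Over the 6 high-Rn45s libraries 37 of 45 pairs were positive, with a median of 0.45. Over all pairs of tested genes that varied, 49.9% were positive in the 8 libraries and 50% in the 6, with a median r of 0 in both. These correlations describe the libraries, whose points share depth and library kind.

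The sum of the immediate early genes moved with the same split of the 8 libraries. It was 4903 to 9244 CPM in the 4 with Y-linked transcripts and 2139 to 2648 CPM in the 4 without. Of 13 such genes tested, 10 had positive and 3 had negative estimates. Dusp1, a phosphatase that restrains MAP kinases, was 2.23 ± 0.22 (SE) higher (limma adjusted p = 0.029), Fos 2.12 ± 0.24 higher (limma adjusted p = 0.038) and Nr4a1 1.72 ± 0.17 higher (limma adjusted p = 0.031), the 3 of 13 tested that passed. The part of cell handling, activation or sex in the chaperone levels was not tested. Of the other chaperone lists the only gene that passed was Dnajb9, a J-domain protein of the endoplasmic reticulum induced by the unfolded protein response, at 1.92 ± 0.10 (limma adjusted p = 0.00094).

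Other genes of the chaperone pathway had 0 calls for genotype in each list, and calls in both directions by Rn45s share, where 36.1% of all genes were called. Of 24 HSP90 relatives and co-chaperones tested, 4 were higher and 6 lower in high-Rn45s libraries, 41.7% in all. Shares near that of all genes, as in this list and the 2 that follow, are no result about the list. Ptges3, the p23 co-chaperone that stabilises closed Hsp90, was 2.23 ± 0.22 (SE) higher and Unc45a, a co-chaperone for myosin folding, differed by -1.12 ± 0.16. Their genotype estimates were -0.81 ± 0.44 and 0.19 ± 0.23.

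Of 21 HSP70 family genes and exchange factors, 3 were higher and 5 lower (38.1%), with Bag6, which handles stray membrane proteins, at 1.04 ± 0.16 and Hspbp1, an exchange factor, at 0.80 ± 0.15. Of 38 J-domain genes, 5 were higher and 10 lower (39.5%), with Dnajb6 at 1.74 ± 0.16 and Dnajc7 at -1.37 ± 0.11. Of 8 small heat shock and mitochondrial genes, 1 was higher and 1 lower (25%). The higher gene was Hspe1, the Hsp10 lid of the Hspd1 chamber, at 1.41 ± 0.22, in the same direction as Hspd1, and the lower one was the mitochondrial Clpx at -0.63 ± 0.17.

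Of 14 genes of the CCT chaperonin and prefoldin, 4 were higher and 5 lower (64.3%), such as prefoldin subunit Pfdn6 at 1.06 ± 0.27 and CCT subunit Tcp1 at -0.52 ± 0.13. Of 27 ER chaperone and unfolded protein response genes, 4 were higher and 9 lower (48.1%). Dnajc3, which inhibits the kinase Perk, differed by -0.97 ± 0.15, in the direction of Hspa5, and the ubiquitin ligase Syvn1 by 1.18 ± 0.17. The heat shock factor gene Hsf2 and Hsbp1, the gene of a heat shock factor binding protein, were also tested, and these 2 did not pass.

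Genes whose levels followed Hsp90aa1 and Hspa8 most closely within library kinds were found by Pearson's r over the 6 high-Rn45s and the 8 low-Rn45s libraries, taking the lower of the 2 among 5218 candidates. For Hsp90aa1 these were Top1 (0.97 and 0.85), Ppid (0.96 and 0.84), Elmsan1 (0.82 and 0.80) and Trat1 (0.80 and 0.80). For Hspa8 they were Cacybp (0.87 and 0.87), Arl8b (0.96 and 0.87), Hnrnpc (0.96 and 0.86) and Slc3a2 (0.91 and 0.85). With so few libraries, high values can arise among 5218 genes, and the points share depth.

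Reads of some members may belong in part to copies elsewhere in the genome. By exact stretches of 32 bases in GENCODE M21 transcripts, 52.4% of Hspd1, 51.1% of Hsp90aa1, 44.5% of Hspa8 and 22.4% of Dnaja1 also occur in other genes, processed pseudogenes among them, and 67.8% of Hspa1b. The share was 12.1% for Hsp90ab1, 0.44% for Dnajb1, 0.36% for Hsf1 and 0% for Hsph1 and Hspa5. All 4 members called higher in high-Rn45s libraries are among the 5 with a share over 20%, and whether shared reads took part was not tested.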

How the data were processed

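RNA was measured in 14 libraries of sorted lymph node regulatory T cells. Per the labels' protocols, libraries were made with Smart-Seq2 and transcripts quantified with Cuffquant 2.2.1, and the submitters' processing notes list Cufflinks 2.2.1, Cuffnorm, TopHat2 2.0.10 and BWA. How strand and shared reads were handled, and on which genome build, is not given in the sources used here. The authors deposited log2 CPM for 14449 genes, in which -3.58 stands for 0 reads. Whole reads were recovered from the linear steps (100% of values lay within 0.001 of an integer) and used for depth, single-gene reads and limma voom. Reads carry no molecular identifiers, so they are not independent molecules.

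The 12329 genes whose CPM exceeded 1 in 3 or more libraries were tested in R 4.3.3 by limma 3.58.1 with a trend of variance on level, two-sided statistics and Benjamini-Hochberg adjustment at 0.05. The models had genotype with the letter, genotype with the Rn45s group (over or under 50% of reads), or 4 groups of genotype and letter. Alternatives changed the filter, prior count, scaling, covariates, variance model, replicate block and libraries used. The comparison by Y-linked transcripts (at least 20 reads) was chosen after seeing the data, as were the subsets of libraries by those transcripts.

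The members and gene lists were chosen with earlier results of these data known. Beside the members, the text names, for each list, at most 2 genes ranked first by unadjusted p for the Rn45s group, at most 2 for genotype, and 4 neighbours each for Hsp90aa1 and Hspa8. Genes outside this rule (Dnajb9, Fos, Dusp1, Nr4a1, Klrb1c, Hspa1a and the T cell and B cell markers) were named after their values were seen. The marker lists for dendritic, plasma, stromal and red cells summed to 0 to 4.94, 48.6 to 187, 64.6 to 107 and 0 to 9.76 CPM. A further marker result is not reported here. Shared sequence was counted in Python 3.11.15 on GENCODE M21 transcripts. Simulated counts with known changes were used to check the fits, at a fixed dispersion and without other differences between library kinds. Known changes were put only in genes above a mean level that Hspa1b does not reach, so recovery at low levels was not simulated. Changes of 2-fold were recovered for 53.7% of changed genes by genotype, 31.3% by Rn45s group and 28.4% by Y-linked transcripts. For changes of 4-fold these shares were 100%, 100% and 97.0%. The real libraries differ more than this setting, so recovery in them is not known.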

Additional observations from a re-analysis of the deposited data

Results flagged for a closer look

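Hspd1 in wild type was flagged because 1 library lay far from the others: wild-type 3-a was at 5.88 log2 CPM and the other 6 at 6.56 to 6.80, a gap of 0.739 of the whole range. This was 1 of 40 groups examined, and chance flags about 1 in 20. Hspa5 and Hsf1 were flagged because every Il1rn-/- library of set a lay below, and every one of set b above, the wild-type mean of its own set. The genotype difference of Hspa5 was 0.98 log2 units in set b and -0.36 in set a, 1.33 apart, and that of Hsf1 was 0.55 and -0.33, 0.88 apart. Whether these differ between the sets is given as not tested, because the genes were chosen by their genotype differences.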

How the results depend on the processing

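The genotype comparison had 0 calls under every alternative run. Between sets, 2408 calls became 12 with the Rn45s group as covariate and 6 in low-Rn45s libraries alone, where the estimates of Hsp90ab1 (0.84 and 0.99), Hspa1b (1.25 and 1.82), Hsph1 (0.25 and 0.53), Hspa5 (0.87 and 0.99) and Hsf1 (0.10 and 0.27) changed sign. Both of these fits rest on Il1rn-/- 3-b and 4-b, the only low-Rn45s libraries of set b, which are Y-positive. Letter and Y-linked transcripts cannot be told apart in them. Dnajb1, at 0.02 between sets, was -0.0059 when scaled outside ribosomal RNA, and -0.18 to 0.27 with each library left out. The Rn45s comparison fell from 4447 calls to 1258 in set b alone and to 1086 with the replicate number as a block. In it Dnajb1 was 0.26 with Y-linked transcripts as covariate and 0.31 without Y-positive libraries, and Hsph1 was 0.12 without them. No pairing by number was seen: deviations of same-numbered libraries correlated at -0.29 to 0.06 over 5227 genes, and 1 of 7 pairs matched best. Library kind differs within groups and enters these deviations, so the check could miss a pairing. With the block Hsp90ab1 (-1.73), Hspa5 (-1.99) and Dnajb1 (-1.83) passed. The Y comparison gave 18 calls, and 38 with log2(CPM + 1), 28 median centred, 35 with limma voom, 41 without the genotype term and 36 in set a alone, where both Y-positive libraries are wild type and 3 of the 4 others Il1rn-/-. With each library left out, calls were 1355 to 3376 between sets (lowest without wild-type 2-a, highest without Il1rn-/- 4-b), 3857 to 4705 by Rn45s share, 0 to 1 for genotype in set a, 0 to 230 in set b (without Il1rn-/- 2-b) and 23 to 68 by Y-linked transcripts (68 without wild-type 3-a). The cause was not tested. Few reads limit Hspa1b, whose Rn45s difference did not pass with limma voom (-1.49, adjusted p = 0.17), and Hsf1 in the shallow libraries.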
